A study of Homo sapiens with 83 samples.

Results

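The 10 genes described here are the transcriptional output arm of the Hippo pathway: the coactivator genes YAP1 and WWTR1 (which encodes TAZ), the DNA-binding partner genes TEAD1, TEAD2, TEAD3 and TEAD4, and the target genes CCN1, CCN2, ANKRD1 and AMOTL2. They were taken by gene symbol from the 60237 genes of the deposited table, and all 10 were found. The list was drawn up with earlier results of these data known, so counts of members called are descriptions. RNA came from SHEP and SKNAS, established human neuroblastoma lines that express N-MYC-ER, an N-MYC protein fused to a part of the estrogen receptor which is made all the time but stays inactive until 4-hydroxytamoxifen (4OHT) is added. MYC-ON cells received 4OHT and MYC-OFF cells its vehicle, ethanol. Cells of both conditions received dexamethasone, which sets the circadian clock, 24 h later. RNA was collected every 4 h from 24 h to 76 h after dexamethasone, and these hours are written as circadian time (CT24 to CT76). SHEP was followed in 2 series of 14 time points per condition, giving 28 MYC-OFF and 28 MYC-ON libraries. SKNAS was followed in 1 series, giving 14 MYC-OFF libraries and 13 MYC-ON libraries, the last of these at CT72. Both conditions carry the fusion and no cells without it received 4OHT, so the agent and N-MYC activation cannot be told apart, and each line is its own experiment, so line and experiment cannot be told apart either.

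YAP and TAZ do not bind DNA themselves. When the Hippo kinases LATS1 and LATS2 phosphorylate them they are held in the cytoplasm or degraded, and when that phosphorylation is low they enter the nucleus and bind a TEAD protein, which recognises the letters GGAATG. The genes that follow include those for the secreted matrix proteins CCN1 and CCN2, for the nuclear ankyrin-repeat protein ANKRD1, and for AMOTL2, an angiomotin that binds YAP and restrains it. In neuroblastoma, high YAP is a known trait of mesenchymal-type cells. Transcript levels show neither where the proteins were nor how far they were phosphorylated, and in RNA from whole cultures fewer cells of a type and less RNA per cell cannot be told apart.

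The promoters of 4 members are shown because they hold the TEAD letters on which this pathway acts. RefSeq promoter sequence (GRCh38.p14) was at hand for 7 of the 10 members, in 10 entries, and the 250 bases before each start were searched on both strands for GGAATG, which reads as CATTCC on the other strand, and for the letters CACGTG, the E-box that MYC-MAX and the clock factors CLOCK-BMAL1 can bind and which reads the same on both strands. The runs are 5′ to 3′ on the strand of the gene, ending at the base before the start, and capitals mark these letters. They cover chr11:102110197-102110446 (plus strand) for YAP1, chr6:131951373-131951622 (minus strand) for CCN2, chr10:90921088-90921337 (minus strand) for ANKRD1 and chr3:134374448-134374697 (minus strand) for the AMOTL2 entry that holds the letters.
YAP1: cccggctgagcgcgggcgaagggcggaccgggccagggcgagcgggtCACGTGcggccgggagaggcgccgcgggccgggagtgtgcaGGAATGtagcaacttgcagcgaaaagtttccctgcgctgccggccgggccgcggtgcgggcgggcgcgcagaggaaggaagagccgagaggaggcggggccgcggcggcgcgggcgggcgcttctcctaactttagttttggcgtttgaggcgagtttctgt
CCN2: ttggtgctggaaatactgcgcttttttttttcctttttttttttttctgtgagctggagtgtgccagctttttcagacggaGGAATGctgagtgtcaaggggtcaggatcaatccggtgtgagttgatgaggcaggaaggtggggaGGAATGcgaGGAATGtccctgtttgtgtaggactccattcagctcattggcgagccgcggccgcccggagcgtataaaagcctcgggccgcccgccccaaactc
ANKRD1: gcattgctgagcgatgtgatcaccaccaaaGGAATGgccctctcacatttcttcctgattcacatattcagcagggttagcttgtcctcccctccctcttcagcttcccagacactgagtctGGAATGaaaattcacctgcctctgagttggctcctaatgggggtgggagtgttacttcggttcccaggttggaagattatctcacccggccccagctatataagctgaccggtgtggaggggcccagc
AMOTL2: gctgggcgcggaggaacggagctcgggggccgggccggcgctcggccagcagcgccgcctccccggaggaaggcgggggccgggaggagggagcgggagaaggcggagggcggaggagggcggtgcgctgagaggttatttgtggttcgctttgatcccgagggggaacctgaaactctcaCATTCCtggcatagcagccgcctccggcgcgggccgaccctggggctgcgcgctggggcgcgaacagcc

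CCN2 held GGAATG 3 times, with first bases at -169, -104 and -95 from the start, so that the last pair lie next to each other. ANKRD1 held it at -220 and -128. YAP1 held GGAATG at -162 and the E-box at -203, and AMOTL2 held CATTCC at -69. Among 35116 promoters of the same length, 11.9% held the TEAD letters at least 1 time, 0.94% at least 2 times and 0.0826% at least 3 times, and 6.34% held the E-box. Neither motif was in the windows searched for WWTR1, TEAD2, TEAD3 or the other AMOTL2 entry, while TEAD1, TEAD4 and CCN1 were not searched. A match is a run of letters and not a measured binding site.

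Values are TPM, transcript levels scaled for gene length and to a fixed total per library, which can be compared between genes, and changes are differences of log2(TPM + 1), which understate the change of low genes. A gene was called when the p of limma, adjusted by Benjamini-Hochberg over all genes tested, was at most 0.05 and the difference reached 0.15 on that scale. Read depth cannot be read from TPM and is unknown, and the time points of a series come from 1 experiment, so p-values measure the spread between libraries and not between independent cultures. Library medians, taken over log2 values, lay between 3.93 and 4.17 in all 56 SHEP libraries, but between 2.76 and 4.38 in SKNAS, where 3 MYC-OFF and 4 MYC-ON libraries were under 3.3 and 10 MYC-OFF but only 3 MYC-ON libraries reached 3.8. For the SKNAS effects, values with the library median as a covariate or from the libraries of at least 3.8 are therefore given as well. MYCN, to which reads of the fusion and of the cells' own gene both count, was at 255 to 688 TPM in SHEP, at 516 to 1050 TPM in SKNAS libraries with a median of at least 3.8 and at 13.1 to 86.6 TPM in those under 3.3. Of the marker lists, the summed mesenchymal markers reached 3400 to 5450 TPM in SHEP and 672 to 2610 TPM in SKNAS, the summed adrenergic markers 28.5 to 55.8 TPM and 82.8 to 611 TPM in the same order, and the endothelial markers at most 2.12 TPM. Most of the mesenchymal sum was VIM, with MYC-OFF means of 3470 TPM in SHEP and 1430 TPM in SKNAS. The mesenchymal marker PRRX1 went the other way, at 0.633 and 67.7 TPM in the same groups. The summed leukocyte markers were 86.5 to 312 TPM in SKNAS MYC-OFF and 26.8 to 136 TPM in MYC-ON, made of PTPRC and CD68 with CD3E at or near 0, and lay between 13.7 and 65.4 TPM in SHEP. The summed epithelial markers were 385 to 737 TPM in SKNAS MYC-OFF and 194 to 304 TPM in MYC-ON. The leukocyte, epithelial and adrenergic sums were thus lower in SKNAS MYC-ON, together with most members. The mesenchymal sum of SKNAS was not, with means of 1610 TPM in MYC-OFF and 1760 TPM in MYC-ON. Of 7 mesenchymal markers tested in SKNAS, 2 were lower and 1 higher, beside 34.4% and 13.7% of all genes. With the library median as a covariate 2 were lower and 4 higher, beside 26.1% and 28.3% of all genes. The epithelial sum was mostly KRT18, with SKNAS means of 509 TPM in MYC-OFF and 237 TPM in MYC-ON, and CDH1 was near 0. In SHEP the epithelial sum was 660 to 1640 TPM in MYC-OFF and 713 to 1240 TPM in MYC-ON. In SHEP the leukocyte sum had means of 46.2 TPM in MYC-OFF and 24.3 TPM in MYC-ON, CD68 changing by -0.96. The epithelial gene CLDN4 changed by -0.91, and KRT18 was not called. Of 8 mesenchymal markers 4 were lower, namely FN1 (-2.24), FOSL2 (-0.86), SNAI2 (-0.70) and NOTCH2 (-0.50). Another 2 were higher, PRRX1 (1.61) and FOSL1 (0.34), and VIM and CD44 were not called. Of all genes in SHEP 38.9% were lower and 33.0% higher. The adrenergic sum of SHEP had means of 33.7 TPM in MYC-OFF and 46.4 TPM in MYC-ON, HAND2 changing by 0.72 while GATA3 was not called. The part of these markers in the members' results was not tested.

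In SHEP, most of the pathway's transcripts were lower in MYC-ON and TEAD4 was higher. YAP1, WWTR1, TEAD1, TEAD2, TEAD3, CCN1, CCN2 and AMOTL2 were called lower and ANKRD1 was not called. That makes 8 of 10 members lower and 1 higher, beside 38.9% of all 14362 genes tested lower and 33.0% higher, so a large part of the transcriptome moved between these conditions. The widest falls were those of CCN2, TEAD2, AMOTL2 and CCN1, and the coactivator genes changed by less than these.

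YAP1 (chr11:102110447-102233424, plus strand), the main coactivator, was at 46.4, 60.9 and 76.6 TPM (lowest, median and highest) in the 28 SHEP MYC-OFF libraries and at 38.8, 51.8 and 62.2 TPM in the 28 MYC-ON libraries. The groups overlapped widely, but within time points and series MYC-ON was the lower in 26 of 28 pairs. The difference was -0.26 (SE 0.0429, adjusted p = 7.34e-07), and mean TPM fell by 16.2%, from 62 ± 5.83 to 51.9 ± 6.84 (SD, n = 28 each). With the library median as a covariate it shrank to -0.07 (adjusted p = 0.0277), under the size required, and with each series averaged to 1 value the adjusted p was 0.0783.

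WWTR1 (chr3:149517235-149736714, minus strand), the gene of the second coactivator TAZ, was lower than YAP1 in every SHEP library. It lay at 21.2, 26.6 and 31.3 TPM in MYC-OFF and at 17.3, 21.2 and 24.7 TPM in MYC-ON. All 28 pairs were lower in MYC-ON, by -0.32 (SE 0.0378, adjusted p = 2.74e-10). YAP1 made up 69.8% ± 1.86 of the summed YAP1 and WWTR1 TPM in MYC-OFF and 70.8% ± 2.67 in MYC-ON (SD, n = 28 each), so the balance between the coactivators moved by less than its spread.

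In SKNAS the YAP1 result depended on which libraries were used and how they were scaled. YAP1 was at 4.01, 22.8 and 39.2 TPM in the 14 MYC-OFF libraries and at 3.17, 9.16 and 31.9 TPM in the 13 MYC-ON libraries, a difference of -0.91 (SE 0.352, adjusted p = 0.0439) with 10 of 13 pairs lower. That call did not hold: with the library median as a covariate the difference was -0.02 (adjusted p = 0.892), without the libraries under 3.3 it was -0.99 (adjusted p = 0.099), and among libraries with a median of at least 3.8 the means were 28.8 TPM in MYC-OFF (n = 10) and 26.1 TPM in MYC-ON (n = 3). Leaving out any of CT24, CT28, CT36, CT40, CT44, CT48, CT56, CT60 or CT68 also ended it. Across libraries YAP1 followed the library median with r = 0.98 in both conditions, beside a median r over all genes of 0.86 in MYC-OFF and 0.85 in MYC-ON, as a description over 14 and 13 libraries that share this scaling.

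WWTR1 kept its fall under the same checks. It was at 8.43, 19.5 and 29.6 TPM in SKNAS MYC-OFF and at 4.16, 6.95 and 15.7 TPM in MYC-ON, and all 13 pairs were lower. The difference was -1.25 (SE 0.193, adjusted p = 9.55e-05), and -0.82 (adjusted p = 9.79e-06) with the covariate. Among libraries with a median of at least 3.8 the means were 23.6 TPM and 13.9 TPM. The order of the coactivators was not fixed in SKNAS, where YAP1 exceeded WWTR1 in 9 of 14 libraries without 4OHT and in 9 of 13 with it.

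**Figure D1:**
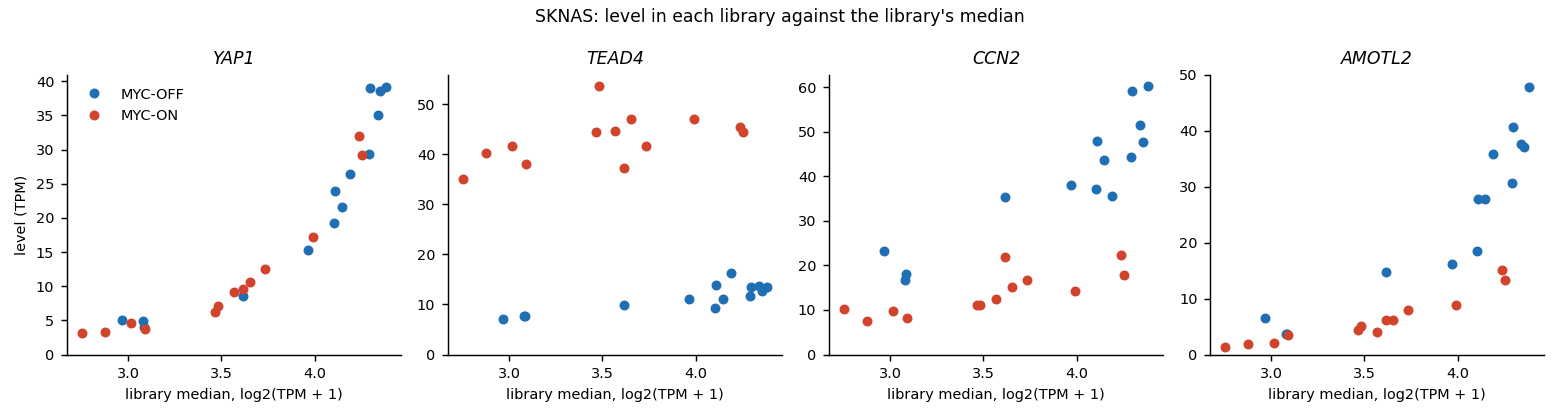
TPM of YAP1, TEAD4, CCN2 and AMOTL2 in each SKNAS library (y axes) against the median log2(TPM + 1) of that library (x axes), with MYC-OFF and MYC-ON in separate colours. YAP1 points of both conditions lie along 1 curve, whereas TEAD4 lies at 35.1 to 53.6 TPM in MYC-ON and at 7.11 to 16.3 TPM in MYC-OFF, ranges that do not meet. Within each condition TEAD4 also follows the median, with r = 0.88 in MYC-OFF and 0.54 in MYC-ON.

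Among the DNA-binding partners, TEAD4 moved the opposite way to its paralogs in both lines. TEAD proteins share a DNA-binding domain and bind the same letters, so these genes are alternative partners for YAP and TAZ. TEAD4 (chr12:2959330-3040676, plus strand) was at 27.7, 32.6 and 39.2 TPM in SHEP MYC-OFF and at 59.5, 68.3 and 81.4 TPM in MYC-ON. No libraries of the groups overlapped, and the difference was 1.04 (SE 0.0284, adjusted p = 1.92e-32), or 2.08-fold in mean TPM. SKNAS gave the same direction with a larger step, from 7.11, 11.4 and 16.3 TPM to 35.1, 44.4 and 53.6 TPM, again with no overlap. The SKNAS difference was 1.84 (SE 0.12, adjusted p = 2.19e-08), or 3.79-fold, and it was 2.01 (adjusted p = 1.22e-09) with the covariate. TEAD4 was also the member whose level varied least between SKNAS MYC-ON libraries, with a coefficient of variation of 11.4% beside 35.5% to 88.6% for the other 9.

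TEAD2 (chr19:49340595-49362457, minus strand) fell most among the TEAD genes of SHEP. It was at 16.5, 20.2 and 27.6 TPM in MYC-OFF and at 7.67, 10.3 and 14 TPM in MYC-ON, with no overlap. The difference was -0.88 (SE 0.0487, adjusted p = 5e-21), and mean TPM fell by 47.8%. In SKNAS it went from 6.65, 32.5 and 42.6 TPM to 4.72, 12.2 and 23.6 TPM, where the groups overlapped and 10 of 13 pairs were lower. That difference was -0.996 (SE 0.246, adjusted p = 0.00391), and -0.42 (adjusted p = 0.00708) with the covariate.

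TEAD3 (chr6:35473597-35497079, minus strand) was at 15.3, 17.2 and 25.3 TPM in SHEP MYC-OFF and at 10, 12.3 and 15.6 TPM in MYC-ON, lower in all 28 pairs by -0.45 (SE 0.0377, adjusted p = 7.11e-15). It was the scarcest TEAD transcript in SKNAS, with means of 6.41 ± 3.19 TPM in MYC-OFF (SD, n = 14) and 2.89 ± 1.94 TPM in MYC-ON (SD, n = 13). The SKNAS difference was -0.90 (SE 0.254, adjusted p = 0.00933), and -0.27 (adjusted p = 0.00874) with the covariate.

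TEAD1 (chr11:12674421-12944737, plus strand) gave the least stable result of the family. In SHEP it was at 19.1, 31.5 and 44.9 TPM in MYC-OFF and at 22.4, 28.5 and 36.5 TPM in MYC-ON, so every MYC-ON library lay inside the MYC-OFF range. The difference of -0.16 (SE 0.0619, adjusted p = 0.0151) was barely past the size required. It turned to 0.04 (adjusted p = 0.53) with the covariate, fell to -0.08 (adjusted p = 0.252) without the second series, and was under the size required without CT32 or CT40. In SKNAS TEAD1 went from 7.44, 37.3 and 70.7 TPM to 3.82, 10.9 and 45 TPM, by -1.32 (SE 0.347, adjusted p = 0.00596), or -0.46 (adjusted p = 0.00869) with the covariate. Among SKNAS libraries with a median of at least 3.8 the difference was -0.48 (adjusted p = 0.224).

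The make-up of the TEAD transcripts shifted to TEAD4 in both lines. TEAD4 was 32% ± 2.24 of the summed TEAD TPM in SHEP MYC-OFF and 57% ± 3.03 in MYC-ON (SD, n = 28 each), and the lowest MYC-ON share, 51.5%, was above the highest MYC-OFF share, 36.5%. In SKNAS the share was 16.3% ± 7.65 (SD, n = 14) and 61.2% ± 13 (SD, n = 13), ranging from 9.68% to 31.9% and from 38.6% to 79.7%. Among SKNAS libraries of at least 3.8 it was 12% ± 2.56 (n = 10) and 42.5% ± 6.49 (n = 3). The sum itself was 103 ± 9.39 and 120 ± 6.75 TPM in SHEP and 86.7 ± 41.4 and 74.5 ± 22.4 TPM in SKNAS. In SHEP MYC-OFF the leading place was shared, with TEAD4 highest in 16 and TEAD1 in 12 of 28 libraries and their means, 33 ± 2.83 and 32.4 ± 6.11 TPM, within their spread. TEAD4 was highest in all 28 SHEP MYC-ON and all 13 SKNAS MYC-ON libraries. In SKNAS MYC-OFF it led in 0 of 14, and TEAD1 led in 10.

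**Figure D2:**
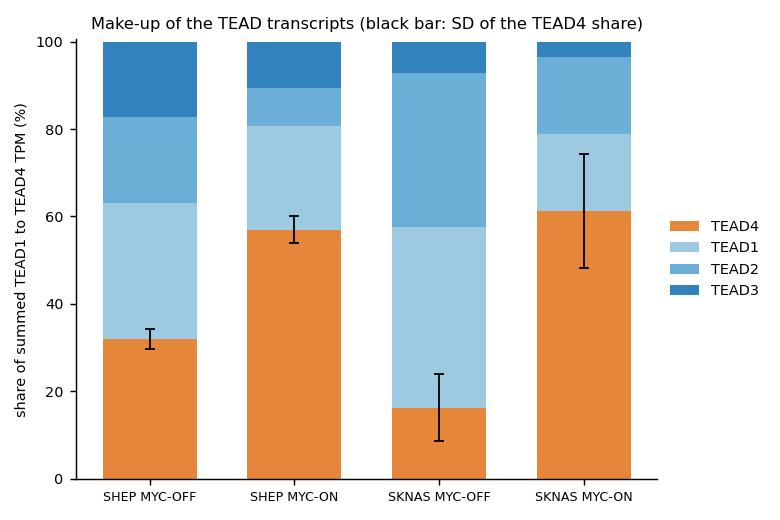
Stacked bars of the mean share of TEAD1, TEAD2, TEAD3 and TEAD4 in their summed TPM (y axis, percent) in the groups of each line, with a black bar for the SD of the TEAD4 share over libraries. The TEAD4 segment widens from 32% to 57% in SHEP and from 16.3% to 61.2% in SKNAS.

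Of the 4 targets, 3 were lower in SHEP and 4 in SKNAS, beside 38.9% and 34.4% of all genes lower. Their summed level was 798 ± 138 TPM in SHEP MYC-OFF and 439 ± 108 TPM in MYC-ON (SD, n = 28 each), and 225 ± 90.6 TPM (n = 14) and 86.6 ± 34.2 TPM (n = 13) in SKNAS. In SKNAS libraries of at least 3.8 it was 268 ± 55.2 TPM (n = 10) and 123 ± 23.5 TPM (n = 3). CCN1 made up most of that sum in SHEP, and CCN2 followed. Of the 10 members, these were the highest and second highest in SHEP MYC-OFF.

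CCN2 (chr6:131948176-131951372, minus strand), also known as connective tissue growth factor and widely used as a readout of YAP, was at 141, 200 and 414 TPM in SHEP MYC-OFF and at 50.6, 75.2 and 137 TPM in MYC-ON. The ranges did not meet, and all 28 pairs were lower. The difference was -1.42 (SE 0.0722, adjusted p = 2.33e-22), and mean TPM fell by 62.6%. In SKNAS CCN2 was at 16.7, 40.9 and 60.2 TPM in MYC-OFF and at 7.41, 12.4 and 22.4 TPM in MYC-ON, with all 13 pairs lower. That difference, -1.46 (SE 0.165, adjusted p = 5.01e-06), was -1.12 (adjusted p = 6.79e-07) with the covariate. Of the members whose promoters were searched, CCN2 held the TEAD letters most often.

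CCN1 (chr1:85580761-85584589, plus strand), also known as CYR61, encodes a matrix protein of the same family and had the highest mean of the members in each group. It was at 375, 493 and 769 TPM in SHEP MYC-OFF and at 209, 277 and 566 TPM in MYC-ON. The groups overlapped, 24 of 28 pairs were lower, and the difference was -0.74 (SE 0.0837, adjusted p = 7.23e-11). The pairs that were higher in MYC-ON all stood at the end of the culture, at CT68, CT72 and CT76 of series 1 and at CT76 of series 2. In SKNAS CCN1 went from 33.4, 129 and 184 TPM to 17.6, 52.6 and 75 TPM, by -1.24 (SE 0.192, adjusted p = 9.66e-05), or -0.81 (adjusted p = 1.44e-05) with the covariate.

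AMOTL2 (chr3:134355347-134375479, minus strand), a target that feeds back on YAP, was at 38.9, 50.3 and 66 TPM in SHEP MYC-OFF and at 21.4, 26.4 and 46.4 TPM in MYC-ON. All 28 pairs were lower, although 1 MYC-ON library reached into the MYC-OFF range. The difference was -0.84 (SE 0.0411, adjusted p = 6.17e-23). In SKNAS it showed the widest fall of any member, from 3.67, 27.8 and 47.8 TPM to 1.39, 5.12 and 15.1 TPM. It amounted to -1.77 (SE 0.31, adjusted p = 0.000286), and to -0.998 (adjusted p = 3.35e-06) with the covariate, under which the fall of CCN2 was the wider.

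ANKRD1 (chr10:90912096-90921087, minus strand), a muscle and stress-responsive cofactor, was the member that did not pass in SHEP. It lay at 9.38, 20.9 and 53.8 TPM in MYC-OFF and at 8.1, 18.5 and 29.6 TPM in MYC-ON. Only 18 of 28 pairs were lower, and the difference was -0.24 (95% interval -0.462 to -0.0095, adjusted p = 0.0533). It passed without CT64, CT68, CT72 or CT76, with values of -0.26 to -0.32 (adjusted p from 0.0382 to 0.00721). SKNAS ANKRD1 went from 13.3, 50.7 and 79.5 TPM to 8.23, 17.5 and 36.2 TPM, by -1.21 (SE 0.192, adjusted p = 0.000113), or -0.82 (adjusted p = 7.97e-05) with the covariate.

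Counted over the members, SKNAS had 9 lower and 1 higher, beside 34.4% of 13886 genes lower and 13.7% higher. That background depends on scaling. As deposited, 28.5% of the called genes of SKNAS were higher and the median gene moved by -0.29, whereas median-of-ratios rescaling gave 53.6% and 0.03 and the covariate 52% and 0.01. In SHEP the share moved less, from 45.9% to 50.1% and 51.5%. TEAD4 was the member called higher under every alternative run in each line, and the lower members numbered 6 to 9 in SHEP and 7 to 9 in SKNAS.

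**Figure D3:**
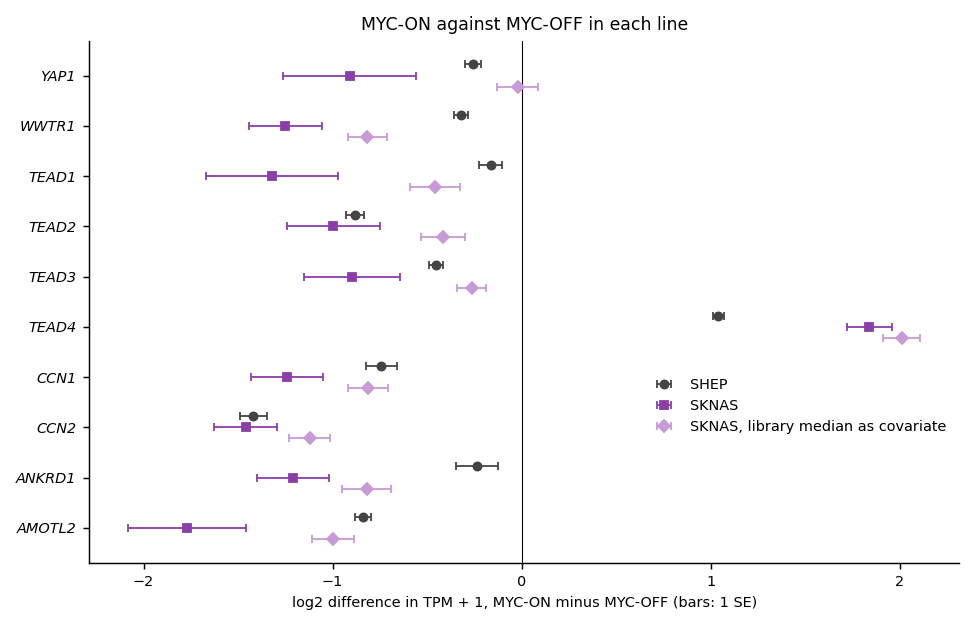
Difference MYC-ON minus MYC-OFF of log2(TPM + 1) for each of the 10 members (points, with bars of 1 SE) in SHEP, in SKNAS, and in SKNAS with the library median as a covariate. TEAD4 lies above 0 in all 3 fits at 1.04, 1.84 and 2.01, CCN2 lies at -1.42, -1.46 and -1.12, and YAP1 in SKNAS moves from -0.91 to -0.02 with the covariate.

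The size of the MYC effect differed between the lines for 8 of 10 members when tested as the interaction of line and condition over all 83 libraries. TEAD4 rose more in SKNAS, by 0.81 (adjusted p = 3.2e-13), and 7 members fell more there, beside 13.5% of 15942 genes with a higher and 38.0% with a lower effect in SKNAS. The 7 included TEAD1 at -1.15 (adjusted p = 4.79e-05), ANKRD1 at -0.98 (adjusted p = 9.87e-05), AMOTL2 at -0.93 (adjusted p = 0.000121) and WWTR1 at -0.93 (adjusted p = 2.02e-08). With the library median as a covariate these stayed called but were smaller, at -0.39, -0.66, -0.28 and -0.55 in the same order, while TEAD4 was at 0.95. For CCN2 the difference was -0.03 (95% interval -0.331 to 0.262) and for TEAD2 -0.11 (95% interval -0.449 to 0.222), so neither was called.
With the covariate the differences of YAP1 (0.13, adjusted p = 0.113) and TEAD3 (0.08, adjusted p = 0.477) turned and were lost, and that of CCN1 went from -0.49 (adjusted p = 0.0152) to -0.18 (adjusted p = 0.379). TEAD2 was then called at 0.40 (adjusted p = 0.000303). Single time points mattered for these as well. Without CT24, CT36 or CT48 the YAP1 difference missed the threshold, at -0.50 to -0.53, as did that of CCN1 without CT68, at -0.33. TEAD3 missed it without CT24, CT36, CT40, CT48 or CT68, at -0.31 to -0.39.

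Between the lines themselves, SKNAS had less of most members than SHEP. In MYC-OFF 7 of 10 were called lower in SKNAS and 2 higher, beside 46.0% and 33.6% of all genes. The widest gaps were CCN2 at -2.46 (SE 0.12, adjusted p = 3.51e-30) and CCN1 at -2.23 (SE 0.153, adjusted p = 3.07e-22), followed by YAP1 at -1.75 (SE 0.186, adjusted p = 1.52e-13). Without the SKNAS libraries under 3.3 these gaps were smaller but still called, at -2.21, -1.88 and -1.29 in the same order. ANKRD1 stood apart from the other targets, being higher in SKNAS by 0.78 (SE 0.171, adjusted p = 3.66e-05), and TEAD2 was higher by 0.37 (SE 0.135, adjusted p = 0.0107). TEAD1 did not differ beyond its spread, at -0.07 (95% interval -0.461 to 0.326), but it was higher in SKNAS by 0.43 (adjusted p = 0.0108) when the SKNAS libraries under 3.3 were left out. In MYC-ON 8 of 10 were called lower, beside 56.2% lower and 28.6% higher over all genes. There TEAD2 was at 0.24 (95% interval -0.0373 to 0.517) and ANKRD1 at -0.19 (95% interval -0.538 to 0.164). Without the libraries under 3.3 TEAD2 was called at 0.53 (adjusted p = 4e-07), and ANKRD1 was at 0.09 and again not called.

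With time in culture CCN1 moved in opposite directions in SHEP MYC-OFF and MYC-ON. A slope was fitted per condition with a separate level for each series, and is given as the log2 change per 24 h. Time in culture, time since dexamethasone and time since 4OHT or ethanol ran together and cannot be told apart. In MYC-OFF, 3 of 10 members fell, all of them targets, beside 4.71% of all genes falling. ANKRD1 fell by 0.68 (SE 0.102, adjusted p = 2.09e-06), from 34.3 ± 9.81 TPM at CT24 to CT36 to 15.1 ± 3.59 TPM at CT64 to CT76 (SD, n = 8 each). CCN2 fell by 0.27 (adjusted p = 0.0243), from 264 ± 69.2 to 183 ± 22 TPM, and CCN1 by 0.22 (adjusted p = 0.0149), from 577 ± 95.3 to 431 ± 39.2 TPM. Of these only ANKRD1 was called in each series alone. CCN1 was called in series 1, at -0.34, and not in series 2, at -0.11. CCN2 was called in neither, at -0.31 (adjusted p = 0.146) in series 1 and -0.22 (adjusted p = 0.32) in series 2, and it missed the threshold without CT32 or without CT76, as did CCN1 without CT32.

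In MYC-ON, CCN1 rose. Its slope was 0.40 (adjusted p = 4.32e-07), with 0.41 in series 1 and 0.39 in series 2, beside 16.8% of all genes rising and 31.1% falling. In series 1 it was lowest at CT44, at 208.5 TPM, and reached 565.6 TPM at CT76. In series 2 it was lowest at CT52, at 224.7 TPM, and reached 483.4 TPM at CT76. Its mean went from 267 ± 48.5 TPM early to 432 ± 61.9 TPM late (SD, n = 8 each), which is level with the late MYC-OFF mean of 431 TPM. The slopes of the conditions differed by 0.62 (adjusted p = 1.59e-07), in each series alone by 0.75 (adjusted p = 0.000325, series 1) and 0.50 (adjusted p = 0.000501, series 2).

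CCN2 and ANKRD1 had no called slope in MYC-ON, but they too were lowest in the middle of the culture. CCN2 had means of 91.5 TPM early and 92.3 TPM late, with its lowest values at CT52, 50.62 TPM in series 1 and 54.84 TPM in series 2, and 117.3 and 92.17 TPM at CT76. ANKRD1 had means of 22.7 and 21.3 TPM and was also lowest at CT52, at 8.097 TPM in series 1 and 15.59 TPM in series 2, with 22.97 and 21.5 TPM at CT76. A straight slope does not describe such a course. The ANKRD1 slopes differed between conditions by 0.58 (adjusted p = 0.000777), although in series 1 alone the difference of 0.53 had an adjusted p of 0.0948. The other MYC-ON slopes that passed were falls. AMOTL2 fell by 0.23 (adjusted p = 0.000181), with -0.24 and -0.22 in the separate series. TEAD2 fell by 0.19 (adjusted p = 5.38e-05) and YAP1 by 0.18 (adjusted p = 1.63e-05), the latter from 56.4 to 45 TPM, but with the library median as a covariate these slopes were -0.10 and -0.05, under the size required, as was YAP1 in series 2 alone (-0.14) or without CT72 and TEAD2 without CT76. TEAD2 was the only other member whose slope difference between conditions was called, at -0.28 (adjusted p = 6.63e-05), so the called differences numbered 2 higher and 1 lower in MYC-ON, beside 14.7% and 24.7% of all genes. The YAP1 slopes differed by -0.146 (adjusted p = 0.014), just under the size required. Without CT56 the count was 5, with CCN2 at 0.28 and YAP1 at -0.15 added.

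**Figure D4:**
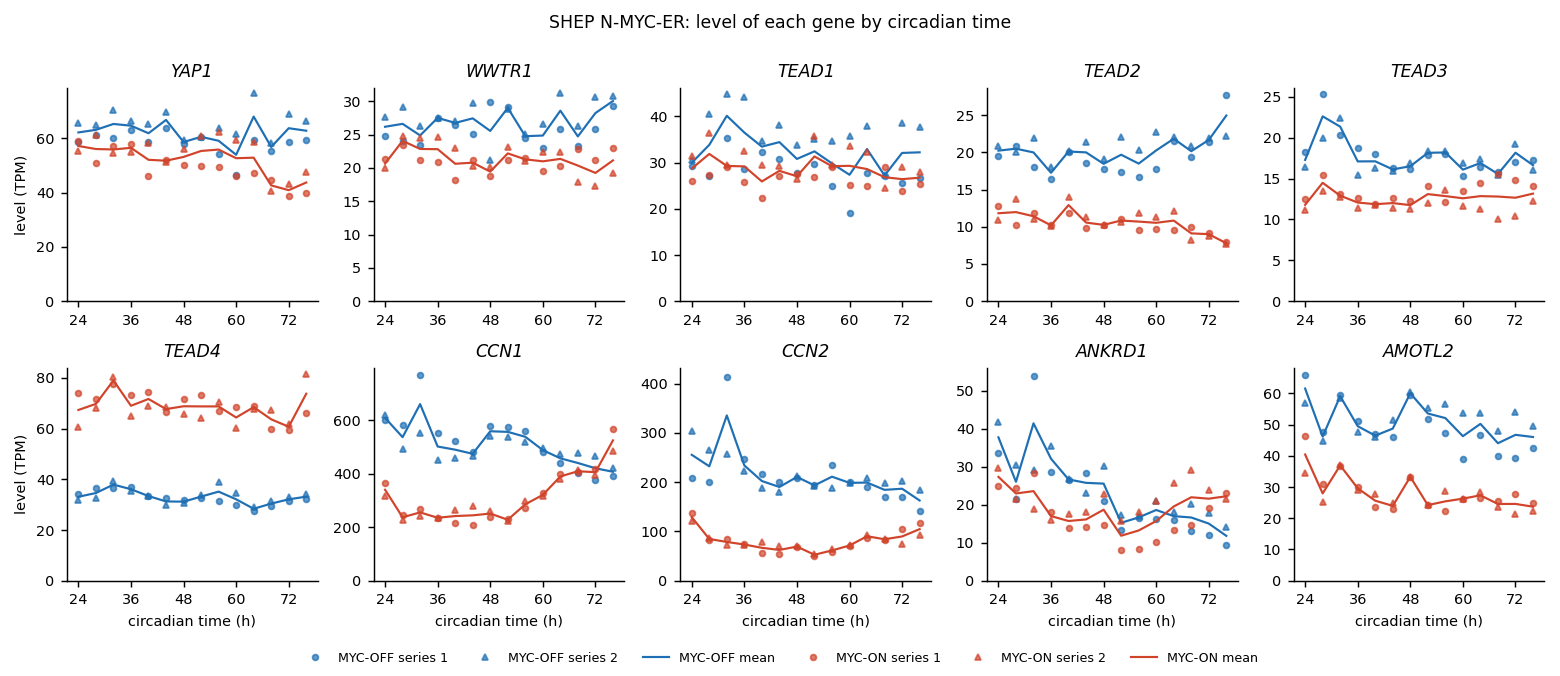
TPM of each of the 10 members (y axes) against circadian time in h after dexamethasone (x axes) in SHEP, with points for the libraries of series 1 and series 2 and lines for their mean, in MYC-OFF and MYC-ON colours. TEAD4 and CCN2 stay apart at each time, whereas the CCN1 lines meet as MYC-ON climbs to 565.6 and 483.4 TPM at CT76.

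In SKNAS no member's slope passed the threshold in either condition. All 10 MYC-OFF slopes were negative, from -0.38 for TEAD4 (adjusted p = 0.0793) to -1.11 for AMOTL2 (adjusted p = 0.135). The median slope over all genes was itself -0.31. At the adjusted threshold 0 of 10 members and 0.151% of all genes passed. All 10 members had an unadjusted p under 0.05, but the share of all genes at that unadjusted p is not given here. MYC-ON slopes lay between -0.61 for TEAD1 and -0.00323 for TEAD4, beside a median of -0.2 over all genes. Of these 0 of 10 had an unadjusted p under 0.05. At the adjusted threshold 0.166% of all genes passed in MYC-ON, and 0.0792% differed in slope. The MYC-OFF count turned on a single library. Without CT76 9 members passed, all but ANKRD1, with YAP1 at -1.25 (adjusted p = 0.0411) and AMOTL2 at -1.38 (adjusted p = 0.0411). The share of all genes passing without CT76 is not given here, so this count cannot be read as particular to the members. The MYC-OFF libraries with medians under 3.3 were those of CT56, CT64 and CT72, and with the covariate only AMOTL2 passed, at -0.40 (adjusted p = 0.049).

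**Figure D5:**
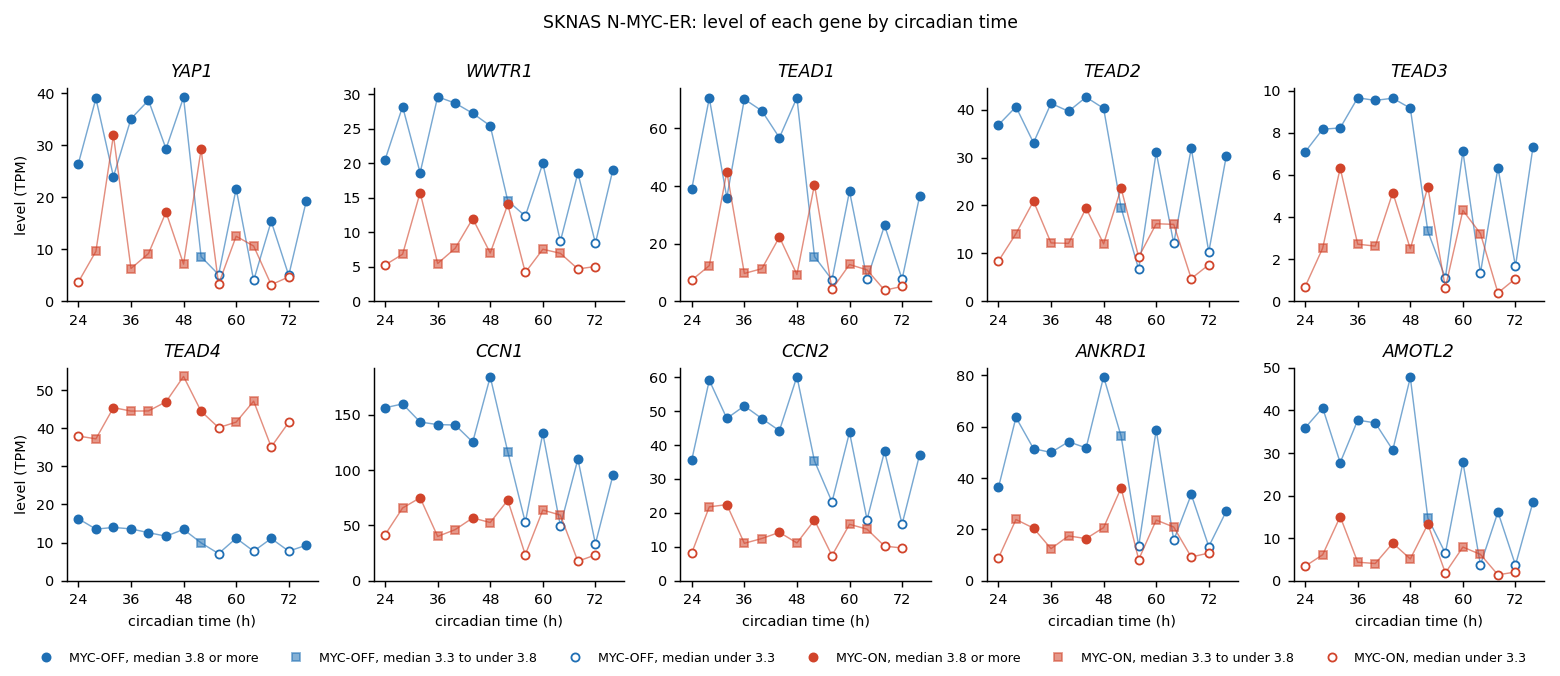
TPM of each of the 10 members (y axes) against circadian time in h (x axes) in SKNAS, with marker shape showing whether the library median is at least 3.8, from 3.3 to under 3.8, or under 3.3. Most members drop and return together in the libraries with low medians, while TEAD4 in MYC-ON stays between 35.1 and 53.6 TPM.

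No member had a called 24 h rhythm in any of the 4 groups by the F test of limma, the lowest adjusted p being 0.218 and 0.552 for MYC-OFF and MYC-ON of SHEP, and 1 and 0.993 for those of SKNAS. At an unadjusted p under 0.05, for which no share of all genes is given here, there were 2 of 10 in SHEP MYC-OFF and 0 in each other group. The share of all genes with a called rhythm was 0.0911% for SHEP MYC-OFF, 0.0210% for SHEP MYC-ON and 0 for either SKNAS group.

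The rest of the pathway was read from lists. Of 17 Hippo kinase and scaffold genes tested in SHEP, 12 were lower and 3 higher in MYC-ON (median -0.21), and in SKNAS 6 of 18 were lower and 2 higher (median -0.37), beside medians over all genes of -0.04 and -0.29 and the shares of all genes given above (38.9% lower in SHEP, 34.4% in SKNAS). The share lower in SKNAS is thus near that of all genes. With the library median as a covariate the list held 5 lower and 4 higher in SHEP and 4 lower and 7 higher in SKNAS. Over all genes that fit gave 33.3% lower and 35.3% higher in SHEP, and 26.1% and 28.3% in SKNAS. The list thus has no direction that holds. FRMD6, which encodes an upstream scaffold, changed by -0.39 in SHEP and -1.55 in SKNAS. LATS2, the gene of a kinase that inactivates YAP and itself a YAP target, changed by -0.56 and -1.21, and TAOK1, the gene of an upstream kinase, by -0.50 and -0.79. With the covariate SKNAS gave -0.82 for FRMD6, -0.66 for LATS2 and -0.18 for TAOK1, which was then not called (adjusted p = 0.413). WWC1, which encodes the scaffold KIBRA, was the 1 gene of the list called higher in both lines, by 0.18 and 1.09.

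Of the other partners and inhibitors of YAP, TAZ or TEAD, 4 of 7 were lower and 1 higher in SHEP, and 4 of 6 were lower in SKNAS, beside 38.9% lower and 33.0% higher of all genes in SHEP and 34.4% lower in SKNAS. With the covariate these counts were 2 lower and 2 higher of 7 in SHEP, and 3 lower of 6 in SKNAS. Over all genes the covariate gave 33.3% lower and 35.3% higher in SHEP, and 26.1% lower in SKNAS. VGLL4, which encodes a competitor of YAP for TEAD, changed by -0.59 and -1.24, and AJUBA, whose product inhibits LATS kinases, by -0.60 and -1.49. PTPN14, whose product restrains YAP, changed by -0.27 and -0.84, but with the covariate by -0.04 (adjusted p = 0.566) and -0.12 (adjusted p = 0.401).

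Most other genes of YAP and TAZ target signatures were lower in both lines. In SHEP 14 of 16 were lower and 1 higher (median -0.44), beside 38.9% of all genes lower. In SKNAS 13 of 16 were lower and 1 higher (median -1.05), beside 34.4% of all genes lower. Of the signature genes 10 were lower in both lines, but the share of all genes lower in both is not given here. LATS2 and PTPN14, counted in the lists before, are among the 10. With the covariate 11 of 16 were lower in SHEP (median -0.42) and 11 of 16 in SKNAS (median -0.55), beside 33.3% and 26.1% of all genes. F3, the gene of tissue factor, changed by -1.87 and -1.32, CCDC80, a matrix protein gene, by -1.44 and -1.74, and AXL, a receptor tyrosine kinase gene, by -0.85 and -1.74. In SKNAS with the covariate these were -1.06, -1.48 and -1.29. The CCN family member CCN3, a relative of CCN1 and CCN2, went the other way, by 0.66 in SHEP and 2.31 in SKNAS (0.78 and 2.74 with the covariate), and it was the 1 further family member abundant enough to test.

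The members did not move as 1 unit between libraries of the same group. After removal of the mean of each condition and series, the 45 pairs of members correlated across the 56 SHEP libraries with r from -0.53 to 0.76 (median 0.19), the lowest being TEAD2 with CCN1 and the highest CCN2 with ANKRD1. Across the 27 SKNAS libraries the same pairs had r from 0.63 to 0.99 (median 0.88), in libraries that share the large shifts in median. The genes most like CCN2 in SHEP were FHL2 (r = 0.76, with 0.73 in SKNAS), ANKRD1 (0.76, with 0.90), SEMA7A (0.75, with 0.75), PLAUR (0.71, with 0.50) and VGF (0.71, with 0.42), out of 12306 genes. Among those most like YAP1 were PRPF8 (0.89, with 0.65), DDX6 (0.88, with 0.98), CELF1 (0.87, with 0.98) and KPNB1 (0.86, with 0.97). YAP1 and CCN1, by contrast, correlated with r = -0.45 in SHEP. These correlations are descriptions over libraries that share a time course and a scaling.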

How the data were processed

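The data are RNA-seq libraries of polyadenylated RNA, paired-end, from 83 samples. The authors quantified transcripts with Salmon 1.3.0 (version per the submitters' notes) on GRCh38 and deposited TPM per gene. The study used a count model, which TPM do not allow, and limma 3.58.1 (R 4.3.3) was used here on log2(TPM + 1), for genes with a mean of at least 1 TPM in the samples compared, with Benjamini-Hochberg adjustment over all genes tested. Effects of MYC and line were fitted with circadian time as a factor, drift as a slope with a level per condition and series, and rhythm with a 24 h sine and cosine. The fits were tested on simulated data, drawn independently for each gene and library. These held no shift shared by a whole library and no dependence between time points. They therefore cannot show how the fits behave with the shifting medians of SKNAS. The members and gene lists were chosen with earlier results of these data known. All members are named, and from each other list up to 3 genes per direction with the largest mean change among those called alike in both lines. For YAP1 and CCN2 the 5 genes with the highest r in SHEP were chosen. Some items that these rules select are not reported here. Alternatives were a pseudocount of 0.1, no filter, median-of-ratios rescaling, the library median as a covariate, omission of time points, series or SKNAS libraries under 3.3, series means as replicates, and a series block. The restriction to SKNAS libraries of at least 3.8 and the covariate for the gene lists were chosen after seeing the data. Gene positions are from Gencode 44. A second SKNAS series and other cell lines were not analysed here.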

Additional observations from a re-analysis of the deposited data

Results flagged for a closer look

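The effect of MYC-ON differed between SKNAS and SHEP, by the interaction of line and condition in limma, for 8 members. These were 1 higher and 7 lower in SKNAS, beside 13.5% of all genes higher and 38.0% lower. The difference (SKNAS minus SHEP, log2) was 0.806 for TEAD4, -1.15 for TEAD1, -0.977 for ANKRD1, -0.929 for AMOTL2, -0.928 for WWTR1, -0.652 for YAP1, -0.493 for CCN1 and -0.444 for TEAD3. SKNAS MYC-ON holds more libraries with low medians than SKNAS MYC-OFF. With the library median as a covariate TEAD4, TEAD1, ANKRD1, AMOTL2 and WWTR1 stayed called, at 0.947, -0.388, -0.661, -0.278 and -0.548, and YAP1, CCN1 and TEAD3 did not.

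The change with time was called different between MYC-ON and MYC-OFF in SHEP for 3 members, 2 higher and 1 lower in MYC-ON. Over all genes 14.7% were higher and 24.7% lower, so this count does not set the members apart. The difference in slope (MYC-ON minus MYC-OFF, log2 per 24 h) was 0.624 for CCN1, 0.585 for ANKRD1 and -0.279 for TEAD2.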

How the results depend on the processing

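TEAD4 kept its direction and its call in both lines under each alternative run. The members lower in MYC-ON numbered 6 to 9 in SHEP and 7 to 9 in SKNAS. Counts of members drifting with time depended on the setting. In SHEP MYC-OFF the count of 3 ranged from 1 to 4 as single time points or series were left out, with 1 without CT32 and without series 1. In SHEP MYC-ON the count of 4 became 2 with median-of-ratios rescaling and 2 with the library median as a covariate. Members whose slope was called different between conditions in SHEP numbered 3 to 5, with 5 without CT56. In SKNAS MYC-OFF the count of 0 became 1 with no filter, 1 with the covariate and 9 at CT24 to CT72 only, and ranged from 0 to 9 as single time points were left out, with 1 without CT56 and 9 without CT76. The shares of all genes drifting under these alternatives are not given here.

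With the covariate the difference in MYC effect between lines turned to 0.399 for TEAD2, 0.076 for TEAD3 and 0.126 for YAP1, and the SHEP effect of TEAD1 turned to 0.043. TEAD1 in MYC-OFF turned to 0.426 higher in SKNAS without libraries under 3.3. The cause was not tested.

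In SHEP the series carry numbers shared by the conditions, and the difference between series had r = 0.489 over 14362 genes between MYC-OFF and MYC-ON. With only 2 numbers this does not establish pairing. With the replicate block ANKRD1 was called, at -0.236 (SE 0.103, adjusted p = 0.0359), so that 9 members were lower and 1 higher, and no other call of the MYC effect changed. With 1 value per series and condition ANKRD1 was not called (SE 0.155, adjusted p = 0.249). SKNAS has 1 series, so no series block could be fitted there.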
